A study of Homo sapiens with 10 samples.

Results

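Naive pluripotency factors are described here in human embryonic stem cells (ESCs) and in neuroectodermal cells (NECs) made from them. They are the Krüppel-like factors KLF2, KLF4, KLF5 and KLF17, the transcription factors TFCP2L1 and ESRRB, and the developmental pluripotency-associated genes DPPA2, DPPA3 and DPPA5. These 9 genes were taken by name from a count table of 31017 genes, and for each one the captured promoter fragment that holds its start was looked up. The rule uses names and no measured value, though the names were chosen with earlier results of these data known, and membership says nothing about the state of these cultures.

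The study asked how promoter contacts and gene expression change when pluripotent cells commit to a lineage. ESCs were the established line H9, unmodified, grown on Pluripro medium and matrix, and NECs were the same line harvested on day 7 of differentiation. RNA-seq and promoter capture Hi-C (PCHi-C) were each made from 2 biological replicates per cell type, so every comparison concerns 1 line. The ESC RNA libraries shared a sequencing lane and the NEC libraries another one, so lane and cell type cannot be told apart.

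Pluripotent cells are described as naive when they resemble the cells of the blastocyst before implantation, and as primed when they resemble the epiblast after it. Mouse ESCs kept with LIF are the standard naive cells, and their self-renewal is sustained by a circuit in which KLF2, KLF4, KLF5, TFCP2L1 and ESRRB act beside OCT4, SOX2 and NANOG. Human ESCs in most standard media are held to be primed, and human naive cells differ from mouse ones in using KLF17 and in expressing little ESRRB.

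PCHi-C enriches ligation products that contain a promoter, and 8 of the 9 members had a captured HindIII fragment (bait) over their start, DPPA2 being the exception. The 250 bases before the RefSeq start of 6 members are printed because these are the 4 members that fell in NECs, the 1 that rose, and DPPA3, which was read in ESCs alone. For KLF5 and ESRRB, which have more than 1 RefSeq start, the start that lies in the bait is shown. Positions are GRCh37, and each sequence reads 5′ to 3′ toward the gene. Capitals mark every match, on either strand, to the GC box GGGCGG, the CACCC box CACCC that Krüppel-like factors can bind, or the TATA box TATAAA.
KLF4 (chr9:110252051-110252300, minus strand): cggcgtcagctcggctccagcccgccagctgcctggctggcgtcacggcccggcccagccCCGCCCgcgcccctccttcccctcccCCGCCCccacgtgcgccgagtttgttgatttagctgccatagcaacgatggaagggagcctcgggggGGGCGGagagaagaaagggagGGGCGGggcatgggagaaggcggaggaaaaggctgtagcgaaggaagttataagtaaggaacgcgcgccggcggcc
KLF5 (chr13:73628864-73629113, plus strand): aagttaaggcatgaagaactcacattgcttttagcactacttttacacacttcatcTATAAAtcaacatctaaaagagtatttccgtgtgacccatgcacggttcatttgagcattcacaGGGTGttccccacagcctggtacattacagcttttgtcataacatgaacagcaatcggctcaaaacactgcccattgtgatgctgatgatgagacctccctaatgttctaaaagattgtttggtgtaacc
TFCP2L1 (chr2:122042779-122043028, minus strand): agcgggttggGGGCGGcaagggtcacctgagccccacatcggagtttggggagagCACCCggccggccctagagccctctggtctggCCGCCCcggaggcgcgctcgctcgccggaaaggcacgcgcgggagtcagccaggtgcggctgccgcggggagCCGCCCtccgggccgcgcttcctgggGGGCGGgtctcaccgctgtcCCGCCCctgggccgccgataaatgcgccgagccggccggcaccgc
ESRRB (chr14:76776870-76777119, plus strand): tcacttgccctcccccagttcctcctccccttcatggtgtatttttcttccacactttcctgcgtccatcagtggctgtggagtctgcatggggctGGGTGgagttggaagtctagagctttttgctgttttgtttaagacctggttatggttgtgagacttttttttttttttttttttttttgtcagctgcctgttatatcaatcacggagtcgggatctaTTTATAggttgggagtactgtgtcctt
DPPA2 (chr3:109035365-109035614, minus strand): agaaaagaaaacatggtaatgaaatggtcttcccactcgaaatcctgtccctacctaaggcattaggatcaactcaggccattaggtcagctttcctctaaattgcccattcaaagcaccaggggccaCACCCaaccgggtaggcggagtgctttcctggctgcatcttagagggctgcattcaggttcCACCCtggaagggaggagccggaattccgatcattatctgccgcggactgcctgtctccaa
DPPA3 (chr12:7863779-7864028, plus strand): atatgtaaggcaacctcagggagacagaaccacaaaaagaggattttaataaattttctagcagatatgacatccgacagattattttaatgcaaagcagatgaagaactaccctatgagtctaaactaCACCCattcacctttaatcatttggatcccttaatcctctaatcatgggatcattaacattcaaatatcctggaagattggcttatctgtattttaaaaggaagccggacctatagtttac

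The promoters of the members ranged widely in base composition. In the 300 bases around the start, TFCP2L1 had 77.3% G and C with 43 CpG and 5 GC boxes, and KLF4 had 69.0% with 33 CpG and 4 GC boxes. DPPA3, with 38.3% and 6 CpG, lay at the other end, and the bait promoter of KLF5 had 40.7% with 4 CpG. The median over 35116 RefSeq promoters was 58.7% with 14 CpG. A second KLF5 promoter outside the bait was at 71.3% with 37 CpG, so the 2 RefSeq starts of this gene differ in kind. ESRRB had 46.7% with 5 CpG at the start in its bait, where TATAAA stood on the other strand at position -27. Among members not printed, KLF2 had 80.7% with 49 CpG, and KLF17 63.7% with 6 CACCC boxes. CACCC occurs in 59.9% of all promoters, GGGCGG in 45.0% and TATAAA in 11.5%. The octamer ATGCAAAT, found in 1.77% of promoters, and AAGGTCA, the site of oestrogen-related receptors, found in 3.92%, had no match in the windows of the 9 members.

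The RNA libraries held 19234087 and 25356382 reads on genes in ESCs and 20793224 and 24323762 in NECs, and 17564 genes passed the filter for low counts. Of the 10 pluripotency markers checked, 8 were called lower in NECs, and of the 10 neuroectoderm markers, 9 were called higher. Summed over the list, pluripotency markers stood at 6357 and 6797 CPM in ESCs and at 1098 and 1628 in NECs. CPM here are counts relative to the library size after edgeR's TMM normalization. ESC replicate 2 held more mesendoderm transcripts, with a summed level of 107 CPM against 39.0 in ESC replicate 1 and 5.47 to 7.39 in NECs, and 7 of the 8 markers of that list were called lower in NECs, 4 without ESC replicate 2 and 5 without NEC replicate 2.

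All 9 members were scarce. The highest level of any member in any library was 4.69 CPM, for TFCP2L1, and the members together summed to 13.2 and 16.5 CPM in ESCs and 4.07 and 4.66 in NECs. The filter for low counts kept 5 members. With edgeR, at an adjusted p under 0.05 and a log2 fold change beyond 1.5 in either direction, 4 of these were lower in NECs (KLF4, KLF5, TFCP2L1 and DPPA2) and 1 was higher (ESRRB). Over all genes tested, 9.68% were called lower, 11.4% higher and 21% in either direction. The median log2 fold change of the 5 was -1.80, against 0.01 over all genes tested. Scarce genes passed the filter more readily where 1 cell type was high, as ESRRB was in NECs and TFCP2L1 in ESCs. KLF2, low in both cell types, did not pass. This limits how far the 5 can be compared with all genes tested. In bulk RNA, fewer cells that express a gene and less RNA per cell cannot be told apart.

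**Figure D1:**
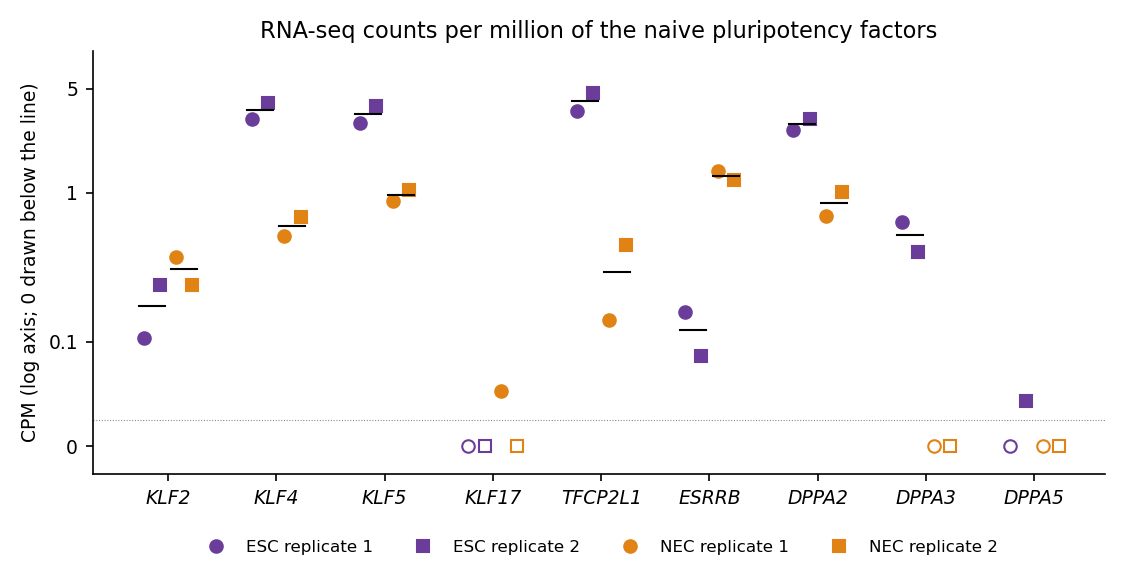
CPM on a log axis for each of the 9 members, with circles for replicate 1 and squares for replicate 2 of ESCs (purple) and NECs (orange), black lines for means over replicates where both were above 0, and open symbols below the dotted line for libraries with 0 counts. KLF4, KLF5, TFCP2L1 and DPPA2 were above 2 CPM in both ESC libraries, ESRRB was above 1 CPM in NECs only, and KLF17 and DPPA5 were at or near 0 throughout.

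TFCP2L1 encodes a CP2-family transcription factor that acts downstream of LIF in mouse ESCs, and of the members that fell it changed most. Its counts were 67 and 116 in ESCs and 3 and 11 in NECs, that is 3.55 and 4.69 CPM against 0.14 and 0.45. The cell types did not overlap, and the mean fell from 4.12 ± 0.81 CPM (SD, n = 2) to 0.29 ± 0.22. By edgeR this was -3.75 on the log2 scale (SE 0.47, adjusted p = 0.000861). NEC replicate 2 held more than NEC replicate 1, and without the first or the second of them in turn the log2 fold change was -3.19 or -4.83, called either way.

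KLF4, one of the factors that reprogram somatic cells to pluripotency, had 59 and 100 counts in ESCs and 11 and 17 in NECs. Both ESC libraries, at 3.12 and 4.04 CPM, lay above both NEC libraries, at 0.51 and 0.69. By edgeR this was -2.56 on the log2 scale (SE 0.33, adjusted p = 0.000965). An annotated gene on the opposite strand overlaps KLF4, and since strand was not used in counting, reads from it would be counted with KLF4.

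KLF5, a Krüppel-like factor that also works in trophectoderm and in gut epithelium, fell less. It had 56 and 95 counts in ESCs and 19 and 26 in NECs, or 2.96 and 3.84 against 0.89 and 1.05 CPM. Again the cell types did not overlap, and edgeR put the change at -1.80 on the log2 scale (SE 0.30, adjusted p = 0.00267). Unlike TFCP2L1, KLF5 remained well above the floor of 3 counts in both NEC libraries.

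DPPA2 encodes a SAP-domain nuclear protein that in mouse cells works with DPPA4 to prime genes of early embryos. It had 50 and 78 counts in ESCs and 15 and 25 in NECs, from 2.90 ± 0.36 to 0.86 ± 0.22 CPM (SD, n = 2). By edgeR this was -1.75 on the log2 scale (SE 0.32, adjusted p = 0.00389), the smallest of the 4 that fell, and with 1 library left out it ran from -2.05 to -1.51, just past the threshold. Pseudogenes of DPPA2, KLF2, KLF4, KLF17, DPPA3 and DPPA5 are annotated, so some reads of these genes could have been placed on a copy.

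ESRRB, the oestrogen-related receptor that supports naive self-renewal in mouse, went the other way. It had 3 and 2 counts in ESCs, at the floor, and 30 and 30 in NECs, that is 1.40 and 1.22 CPM. The NEC level was at least 9.35-fold higher than the ESC floor of 3 counts per library, and the edgeR adjusted p was 0.00122. Genes on the opposite strand overlap ESRRB, so the strand of these reads is unknown. Both NEC libraries held the same number of reads, and the call held without either of them.

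DPPA3, which encodes the maternal factor STELLA that protects DNA methylation of the maternal genome in the zygote, had 12 and 10 counts in ESCs and 0 in both NEC libraries. It did not pass the filter for low counts. Its level in ESCs, 0.64 and 0.40 CPM, was at least 3.97-fold above the NEC floor. With no filter, edgeR gave it an adjusted p of 0.000413.

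The other 3 members gave too few reads to compare. KLF2, a factor of the vascular endothelium as well as of naive cells, had 2 and 6 counts in ESCs and 8 and 6 in NECs, which overlap, and with no filter edgeR put the difference at 0.73 on the log2 scale (SE 0.80, adjusted p = 0.485). KLF17, a marker of human naive cells, had a single read in 1 NEC library. DPPA5, a KH-domain gene of early embryos, had a single read in 1 ESC library. A difference in either was not detectable at this depth, where 3 counts correspond to 0.121 to 0.159 CPM.

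Per kilobase of exon, the order of levels in ESCs ran from DPPA2, at 1.91 and 2.28 CPM per kb in the 2 libraries, to KLF4 at 0.853 and 1.10 and KLF5 at 0.806 and 1.04. The last pair overlapped and cannot be ordered. DPPA3, at 0.578 and 0.367, and TFCP2L1, at 0.379 and 0.501, also overlapped, and all others were below 0.1. In NECs DPPA2 still led, with 0.507 and 0.732, followed by KLF5 at 0.242 and 0.286 and ESRRB at 0.237 and 0.205. KLF4, at 0.140 and 0.188, came next, just above KLF2 at 0.133 and 0.0862, and TFCP2L1 was at 0.015 and 0.0476. Exon length here is the union of annotated exons, so genes with long alternative ends are placed lower. The lengths came from a later annotation than the one used for the counts, so the order between genes is approximate.

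The genes nearest in pattern to each tested member are given as a description, from 4 points that share libraries. Likeness was the Euclidean distance between centred log2(CPM + 0.05) values over the 4 libraries, among 14525 genes with an average log2 CPM of at least 1. Nearest to KLF4 were RP11-458B24.2, KCND2 and GPR78, with distances of 0.132, 0.137 and 0.146. Nearest to KLF5 were ALDH3A2, LINC00337 and SNX16 at 0.0221, 0.0663 and 0.0862, and nearest to DPPA2 were STAMBPL1, SPNS2 and MREG at 0.0554, 0.0567 and 0.0642. TFCP2L1 had no neighbour so close, with PPAP2C, PYCARD and POLR3G at 0.235, 0.325 and 0.330. For ESRRB the nearest were OPRL1, CLIP3 and JAM2, at 0.117, 0.118 and 0.180.

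Among 20 other genes linked to the naive state, 12 of the 14 tested were lower in NECs and 1 was higher. The list mixes genes of naive cells with genes shared by all pluripotent cells, such as NANOG and DPPA4. FGF4, the growth factor that drives exit from the naive state, was read 35 and 72 times in ESCs and 0 times in NECs, at least 18.2-fold lower. GDF3, a TGF-beta family ligand, had 265 and 864 counts in ESCs and 3 and 5 in NECs (log2 fold change -7.10). For NANOG the log2 fold change was -5.74, and for ZFP42, which encodes REX1, it was -5.09. DNMT3L, a cofactor of de novo DNA methylation, had 25 and 32 counts against 1 and 0, at least 10-fold lower. The 1 higher gene was KHDC1L, with 2 and 0 counts in ESCs and 15 and 19 in NECs, at least 5.25-fold higher. The median log2 fold change of the tested genes was -4.02, or -3.08 with genes at the floor placed at their bound. TBX3, a T-box factor of the mouse naive circuit, was not called (log2 fold change -0.35, SE 0.37).

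Primed-state genes moved in both directions. Of 12 listed, 11 were found and tested, and 4 were lower in NECs and 1 higher. Their median log2 fold change was -0.61. DNMT3B, a de novo DNA methyltransferase, fell from 1556 to 227 CPM (log2 fold change -2.77). FGF2 (-2.74), CYTL1 (-2.05) and THY1 (-1.68) also fell. DUSP6, which dephosphorylates ERK, rose from 52.2 to 228 CPM (log2 fold change 2.12). Against the summed 4.07 to 16.5 CPM of the 9 members, the primed list summed to 3383 and 3586 CPM in ESCs and 2331 and 2676 in NECs. DNMT3B alone held 1437 and 1675 CPM of the ESC sums. The list of other naive-associated genes summed to 1069 and 1121 CPM in ESCs and to 150 and 231 in NECs. The lists differ in length, so their sums do not compare naive with primed genes as such.

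Family relatives of the members differed by list. Of 13 other KLF genes, 11 were tested, and edgeR called 0 in either direction at the fold threshold, as did DESeq2. With no fold threshold, an adjusted p under 0.05 was reached by 5209 lower and 5529 higher genes of all 17564 tested. Of the 11 KLF genes, 2 were lower and 6 higher by that rule. KLF12 and KLF3, repressors in several tissues, were the highest of them in log2 fold change, at 1.20 and 1.15, and KLF16 was the lowest at -1.11. Among relatives of the other members, 2 of 10 tested genes were lower and 2 higher, where 9.68% and 11.4% of all genes tested were. GRHL2 (-3.30) and GRHL3 (3.09), Grainyhead-like factors related to TFCP2L1, moved in opposite directions. DPPA4, the partner and neighbour of DPPA2, had 11545 and 17034 counts in ESCs and 2827 and 4984 in NECs, a difference of -1.96 on the log2 scale (SE 0.20, adjusted p = 0.000425 by edgeR). KHDC1L was the second higher relative, and TFCP2 itself, the gene closest to TFCP2L1, was not called (log2 fold change 0.11, SE 0.10).

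LIF signals through LIFR, IL6ST, JAK kinases and STAT3 to several members in mouse cells. All 12 genes listed for this pathway were tested. The median log2 fold change was -0.36, and 2 genes were lower in NECs. IL6, a cytokine of the same family as LIF, had 10 and 19 counts in ESCs and 1 and 0 in NECs, at least 4.96-fold lower. IL6R, its receptor, fell from 7.17 to 2.01 CPM (log2 fold change -1.82). LIFR itself (0.39) and STAT3 (-0.50) stayed inside the fold threshold.

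**Figure D2:**
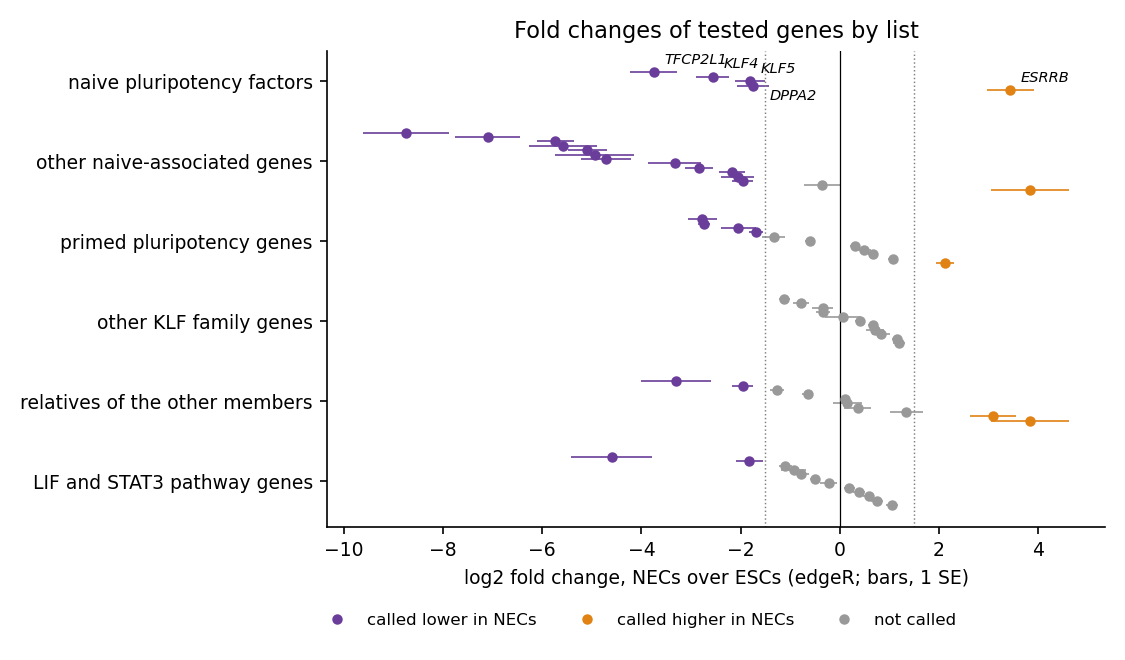
Log2 fold change of NECs over ESCs (x axis; bars, 1 SE) for every tested gene, with 1 row of genes per list, members in the first row, dotted lines at the fold threshold of 1.5, purple for called lower, orange for called higher and grey for not called. TFCP2L1, KLF4, KLF5 and DPPA2 lie left of the lower threshold and ESRRB right of the upper one, and the 11 other KLF genes all lie between -1.11 and 1.20.

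Some members are also expressed in lineages that an ESC culture could contain, and the markers of those lineages were read beside them. DPPA3 is a germ cell gene, and of 8 germ cell markers 6 were tested and 2 lower in NECs (SOX17 and TFAP2C), while DDX4 was at 0 in all 4 libraries and NANOS3 at 1 or 2 counts. Without ESC replicate 2 or without NEC replicate 2, 1 of them was called, and SOX17 had 24 and 126 counts in the ESC libraries. The summed level was 51.3 and 53.6 CPM in ESCs and 50.3 and 50.8 in NECs, in which TFAP2C went from 21.5 to 5.20 CPM and KIT from 22.8 to 42.0 (log2 fold change 0.88, not called). PRDM1 (-1.25) and SYCP3 (-0.96) were not called either. DAZL, a further germ cell marker, was read in every library, with 15 and 11 counts in ESCs and 8 and 30 in NECs (log2 fold change 0.415, not called). KLF4 and KLF5 are expressed in epithelia, where KRT14 was at 0 in all libraries and KRT5 and TP63 at 0 to 2 counts. Among 5 tested epithelial markers, CDH1 (-4.07) and GRHL2 (-3.30) were lower in NECs. The others tested, KRT19 (-1.27), KRT18 (-0.01) and KRT8 (0.20), were not called. The epithelial list summed to 522 and 586 CPM in ESCs and 354 and 401 in NECs. Of the 8 trophoblast markers, 4 were tested, with 1 lower (KRT7) and 2 higher (GATA2 and TFAP2A). KRT7 had 59 and 61 counts in ESCs and 9 and 26 in NECs. GATA3, not called, had 17 and 23 counts in ESCs and 8 and 15 in NECs. In the ESC libraries CDX2 and CGA were at 0, and ELF5, HAND1, GATA2 and TFAP2A had 0 to 5 counts. That list summed to 3.56 to 4.61 CPM in ESCs and 5.47 to 9.26 in NECs. Of 8 neural crest markers, 1 was lower (3 without NEC replicate 1) and 4 were higher (6 without NEC replicate 2). The list summed to 131 and 129 CPM in ESCs and to 188 and 74.5 in NECs. ETS1, the lower one, alone held 106 and 105 CPM of the ESC sums. The NEC replicates differed in SOX10 (393 and 17 counts), FOXD3 (186 and 9) and TFAP2A (117 and 17). They were closer in SNAI2 (524 and 485) and SOX9 (726 and 731). The part of these cells in the members' changes was not tested.

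Promoter contacts were taken from lists of fragment pairs scored with CHiCAGO, in which a higher score marks a pair less likely under a background of distance and fragment bias, and a score of at least 12 was required. The fragment that a bait was called with is its promoter-interacting region (PIR). The lists carry no read numbers, so the depth behind a score is unknown. With 2 replicates against 2, no permutation p can fall below 0.05, and PIR numbers are therefore given without a test.

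From the 8 baited members, 27 PIRs were called in each ESC replicate, and 44 and 20 in NEC replicates 1 and 2. The NEC replicates differed more from each other than either did from ESCs, and NEC replicate 1 also had the longest list, 100305 calls against 81168 in NEC replicate 2. Called on the 2 replicates of a cell type together (merged calls), 22 PIRs were found for ESCs and 25 for NECs, and 9 of them were the same fragments. The 9 were part of 38 distinct merged PIRs, and over all baits 28.4% of merged interactions were shared. Calls rarely repeated. Of 99 interactions in any replicate, 85 appeared in 1 replicate only, where the share over all baits was 78.8%. Of 47 merged calls, 15 were in neither replicate of their own cell type, against 27.3% over all baits.

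KLF5 was the only member with more PIRs in both NEC replicates than in both ESC replicates (5 and 3 against 2 and 2), and ESRRB the only one with the reverse (7 and 6 in ESCs against 5 and 2). Such non-overlap was found for 13.2% and 12.9% of 21768 baits, so 1 of 8 members each way is near the background. In the other 6 members the cell types overlapped. KLF4 had 8 and 10 PIRs in ESC replicates against 20 and 6 in NEC replicates, and TFCP2L1 had 3 and 2 against 6 and 3. For DPPA3 the numbers were 4 and 3 against 0 and 3, and for DPPA5 they were 0 and 3 against 4 and 2. KLF2, with 1 and 0 against 3 and 1, and KLF17, with 2 and 1 against 1 and 0, had the fewest.

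**Figure D3:**
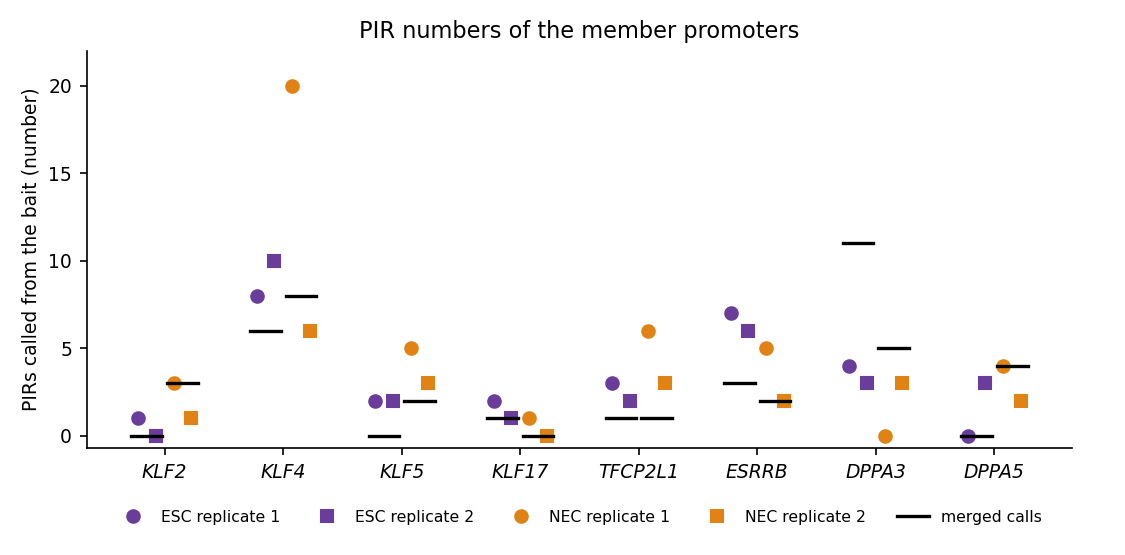
Number of PIRs called from the bait of each of the 8 baited members, with circles for replicate 1 and squares for replicate 2 of ESCs (purple) and NECs (orange) and black bars for the merged calls of each cell type. KLF4 reached 20 PIRs in NEC replicate 1 and 6 in NEC replicate 2, and DPPA3 had 11 and 5 merged PIRs but 0 to 4 in single replicates.

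KLF4 had the most contacts, and all 37 of its PIRs in any list lay on the upstream side. Its bait (9:110244650-110255868) had no PIR nearer than 290 kb, and the farthest was at 1523 kb. Of the 37, 32 were intergenic. The fragment 9:111110656-111122345, an intergenic bait 866 kb upstream, was the one interaction called from a member's bait in all 4 replicates, with scores of 12.3 and 16.5 in ESCs and 12.7 and 14.0 in NECs. Its merged scores, 15.6 and 15.4, were alike in both cell types. Read from the other end, since that fragment is itself a bait, the pair was called in ESC replicate 2 (12.7) and NEC replicate 2 (12.7) and in neither merged list. Over all baits, 2.85% of replicate interactions were in all 4. The next fragment group, at 1068 to 1103 kb, was called in merged NECs at 4 adjacent or nearby fragments and in merged ESCs at 2 of them.

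Among the members, 3 interactions were found in each replicate of a cell type and in neither of the other, and all came from ESRRB. Its bait (14:76762364-76783165), which also holds the start of RP11-516J2.1, a gene at 0 counts in every library, called 2 PIRs in both ESC replicates and in no NEC replicate. These held the starts of TTLL5, 674 kb away with scores of 17.4 and 13.5, and of IFT43, 404 kb away with scores of 14.1 and 12.2. Over all baits 2.56% of replicate interactions had this pattern. The PIR 14:77225292-77232650, 456 kb on the other side, was called in both NEC replicates only, at 13.9 and 12.6, a pattern of 2.46% of interactions. It holds the start of VASH1, an angiogenesis inhibitor gene, and of a further RNA gene that was at 0 counts in every library. VASH1 rose from 322 and 381 counts in ESCs to 2216 and 2132 in NECs, by 2.55 on the log2 scale (SE 0.13, adjusted p = 3.56e-05 by edgeR). TTLL5 (0.18) and IFT43 (1.01) were not called. The fragment nearest to the bait, in exons of GPATCH2L at 104 kb, was in 3 replicates and had the highest merged score in NECs among calls from the members' own baits, 17.5, against 14.5 in ESCs. The baited start is the first of 3 RefSeq starts of ESRRB, and the other 2, outside the bait, were not seen by this fragment.

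TFCP2L1 had 1 merged PIR, in both cell types. It was the promoter fragment of GLI2 (2:121490315-121496462), a Hedgehog pathway transcription factor, 545 kb downstream of the TFCP2L1 start. It scored 12.7 and 15.8 in ESC replicates and 12.5 in NEC replicate 1, with merged scores of 15.2 and 12.5. GLI2 was not called (0.23 on the log2 scale, SE 0.10, adjusted p = 0.0918 by edgeR), while TFCP2L1 fell. The other 11 PIRs of TFCP2L1 were each called in a single replicate.

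DPPA3 lies in a cluster with GDF3 and NANOG, and its 3 called neighbours within 200 kb were GDF3 (-7.10), NANOG (-5.74) and its tandem copy NANOGP1 (-4.49), all lower in NECs like DPPA3 itself. The DPPA3 bait (12:7854147-7867869) had 11 merged PIRs in ESCs and 5 in NECs, with 4 shared, and 8 of its 17 PIRs were in no single replicate. A fragment in NANOG exons (12:7942238-7944430) was called at 13.4 in merged ESCs and in no single replicate, and the start of NANOG is in no bait. The strongest shared PIR, 12:7955183-7960794, scored 17.0 in merged ESCs and 16.4 in merged NECs. The highest merged score in ESCs among calls from the members' own baits, 18.1, was at an intronic fragment of SLC2A3, a glucose transporter gene, 295 kb away. The SLC2A3 promoter is a different fragment, 226.5 kb away, which the DPPA3 bait called in no list. From its own bait, that promoter called the DPPA3 fragment at 36.0 in ESC replicate 2 and at 26.5 and 26.4 in the NEC replicates. The merged scores were 20.2 in ESCs and 27.6 in NECs. From the GDF3 bait the DPPA3 fragment scored 13.2 in merged ESCs and 13.4 in merged NECs, and was called in no single replicate. SLC2A3 and SLC2A14, like NANOG and NANOGP1, are duplicated copies, so reads in this region are placed with less certainty.

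KLF5 had no merged PIR in ESCs and 2 in NECs. One was the shared promoter fragment of DIS3 and PIBF1, 263 kb upstream, at 13.4 in ESC replicate 2 and 17.4 in NEC replicate 1. The other lay 67.3 kb downstream, in intergenic sequence, and was called in NEC replicate 1 but in no other replicate. Of the 10 KLF5 PIRs, 3 were upstream. The second KLF5 promoter, which is rich in CpG, lies outside the bait.

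KLF2, KLF17 and DPPA5, like KLF5 and DPPA3, had no PIR called from their own bait in both replicates of a cell type. KLF17 contacted the DMAP1 promoter fragment at 96.7 kb, at 14.9 in ESC replicate 1 and 14.5 in merged ESCs. KLF2 had 3 merged PIRs, all in NECs and each called in NEC replicate 1 but in no other replicate, the highest merged score being 14.9. Its fragment was also called from a partner bait 308 kb upstream, in ESC replicate 1 (13.9) and in NEC replicates 1 and 2 (13.8 and 12.1), with a merged score of 13.7 in NECs. DPPA5, whose bait also holds the start of KHDC3L (C6orf221 in the table), had 4 merged PIRs, all in NECs, and its 9 replicate interactions were each in 1 replicate.

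**Figure D4:**
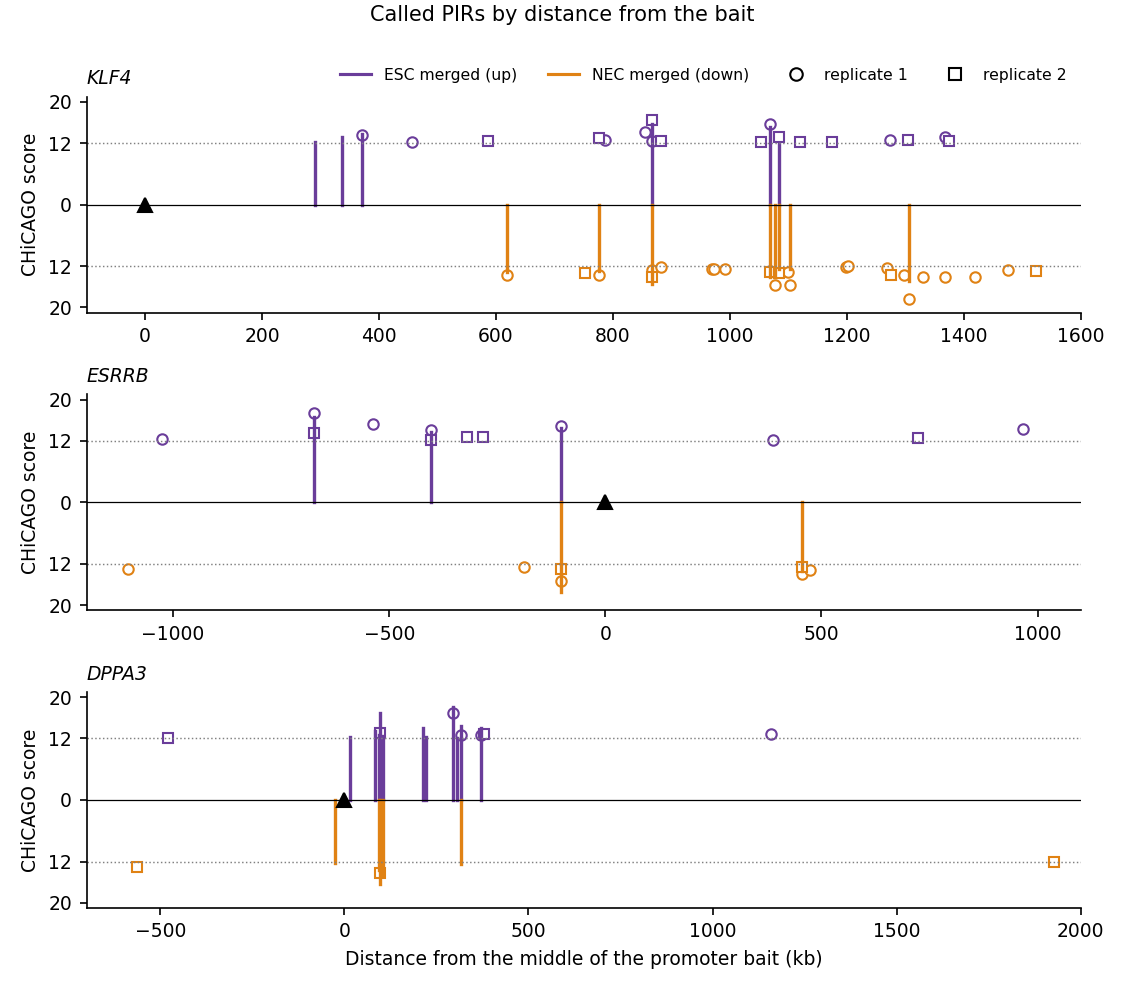
CHiCAGO score of each PIR of KLF4, ESRRB and DPPA3 against the distance from the middle of the bait in kb, toward higher coordinates to the right, with the bait as a triangle, ESCs upward in purple, NECs downward in orange, lines for merged scores, circles and squares for replicates 1 and 2, and dotted lines at the score of 12. KLF4 has all contacts on one side from 290 kb onward, ESRRB has ESC contacts at 674 and 404 kb to the left and a NEC contact at 456 kb to the right, and 1 ESRRB call at 26482 kb is off the axis.

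The median distance of their merged PIRs reached 301 kb for ESCs and 317 kb for NECs, and over all calls it was 197 and 217 kb. Without KLF4, which supplied 6 and 8 of these PIRs, the medians were 218 kb over 16 PIRs in ESCs and 104 kb over 17 in NECs. Scores were not unusual, with medians of 13.9 and 13.4 against 13.5 and 13.6 over all calls. No member called a PIR on another chromosome. Of 38 merged PIRs, 18 were exonic, 3 intronic and 17 intergenic, and 10 were baits themselves.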

How the data were processed

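The members and gene lists were chosen with earlier results of these data known. The authors aligned RNA-seq reads to GRCh37 and deposited raw counts per gene, without strand or normalization, and the submitters' processing notes name Bowtie 1.0.0 and TopHat2 2.0.8b. For PCHi-C the authors deposited pairs of HindIII fragments with a CHiCAGO score of at least 12, per replicate and for replicates merged. The depth behind a score is unknown, and Hi-C data were not used here.

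Counts were filtered (filterByExpr, minimum count 10), scaled by TMM and tested with edgeR 4.0.16 in R 4.3.3 over 17564 genes, with cell type as the only term. Thresholds followed the study: Benjamini-Hochberg adjusted p of 0.05, log2 fold change of 1.5 in size. The study's tool, DESeq2 (1.42.0), was an alternative. A gene with 3 or fewer counts in both libraries of a cell type was at the floor, and its fold is a bound against 3 counts per library. Fitted values use a prior count of 0.125. Labels call the 2 samples of a cell type biological replicates. Interaction lists were read in Python 3.11.15 with pandas 2.3.3, distances run between fragment middles, and 135 of 135 member fragments began at a HindIII site. RefSeq promoters of all 9 members were placed uniquely in GRCh37. The scripts were tested on simulated data.

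Named genes are the 9 members, up to 5 called genes with the largest change per list, called genes within 200 kb of a member, genes starting in a member's bait or in a PIR called in both replicates of a cell type, and 3 genes nearest in pattern. TBX3, TFCP2, LIFR, STAT3, KLF3, KLF12, KLF16, genes at other PIRs and the marker genes given beside the list counts were added after their values were seen. Alternatives were other scalings, DESeq2, other count filters, no fold threshold, a replicate block, single libraries left out, and for PIRs a score of at least 15, calls in both or either replicate, PIRs within 10 kb counted as shared, every bait of a gene's transcripts and, chosen after seeing the data, calls from partner baits.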

Additional observations from a re-analysis of the deposited data

How the results depend on the processing

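The calls of KLF4, KLF5, TFCP2L1, DPPA2 and ESRRB held under every alternative run, with 4 to 5 members lower and 1 higher. With 1 library left out, log2 fold changes ran from -2.80 to -2.36 for KLF4, -2.00 to -1.61 for KLF5, -4.83 to -3.19 for TFCP2L1, -2.05 to -1.51 for DPPA2 and 2.99 to 3.91 for ESRRB. Library size alone shifted the median of all genes by 0.06 and DESeq2 size factors by -0.02. Without a fold threshold, 5209 of all 17564 genes tested were lower and 5529 higher. The lists then had 5 higher primed genes, 2 lower and 6 higher other KLF genes, and 4 lower relatives. They also had 6 lower and 4 higher LIF and STAT3 genes. With a minimum count of 20, there were 0 higher naive-associated genes, 1 higher relative and 1 lower LIF and STAT3 gene. Without a low count filter, 1 other KLF gene was lower. Leaving out 1 library gave 1 to 2 lower LIF and STAT3 genes, 1 without ESC replicate 2. PIR numbers depended most on the calls used. ESCs had 22 merged PIRs, but 6 at a score of at least 15, 4 called in both replicates, 50 in at least 1 replicate and 27 with partner baits added, and 27 to 27 in single replicates. NECs had 25, but 3, 4 and 60 by the same 3 rules, and 20 to 44 in single replicates, the 44 being NEC replicate 1. At a score of at least 15, 2 PIRs were shared in place of 9. The deposited lists cannot say how many reads lie behind any of these.

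The labels give same-numbered replicates only a number in common, so whether they share a culture or day is unknown. The deviations of ESC replicate 1 and NEC replicate 1 from their group means correlated at 0.056 over 17564 genes. With 2 libraries per group this value cannot settle whether the replicates are paired. With the replicate number as a block, 4 members were lower and 1 higher, with log2 fold changes of -2.56 for KLF4, -1.80 for KLF5, -3.79 for TFCP2L1, -1.75 for DPPA2 and 3.43 for ESRRB, and among the marker lists the neural crest list had 2 lower and 5 higher genes in place of 1 and 4 and the mesendoderm list 8 lower in place of 7.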

Other observations

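DPPA2 has no bait, and the fragment over its start appeared once in the lists as a far end, called in ESC replicate 2 alone from a bait 736 kb away with a score of 12.2. DPPA4, whose start is 21.1 kb from that of DPPA2, has a bait that called 7 and 4 PIRs in ESC replicates and 14 and 7 in NEC replicates. Close to DPPA2, AC124945.1 also fell (log2 fold change -2.43, edgeR adjusted p = 0.00316), with its start 21.3 kb from that of DPPA2. Around DPPA5, 3 genes within 200 kb were higher in NECs. KHDC1L and RP11-257K9.7 start at the same distance, 91.1 kb, and their counts of 15 and 19, and of 15 and 20, in NECs were nearly alike. Whether the same reads were counted for both was not tested. EEF1A1, the elongation factor gene with many near-identical copies, rose from 774 to 8923 CPM (log2 fold change 3.53, edgeR adjusted p = 3.3e-05), and DPPA5 beside it stayed at 0 or 1 count.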
